A study of Homo sapiens with 8 samples.

Results

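The genes described here are 41 heat shock proteins, chaperones, chaperonins, co-chaperones and heat shock transcription factors, taken from a fixed list of names. All 41 were present in the tables of both cell lines, out of 12715 genes listed for either line and 10698 listed for both. Their mRNA was sequenced after oligo(dT) selection. The cells were 2 established thyroid carcinoma lines, BCPAP and CAL-62, both anaplastic per the labels. The study compared cells given THZ1, a covalent inhibitor of the transcriptional kinase CDK7, at 100 nM for 6 h with cells given the vehicle DMSO.

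The 4 groups were BCPAP with DMSO, BCPAP with THZ1, CAL-62 with DMSO and CAL-62 with THZ1, with 2 libraries each. The labels name no introduced allele, and each comparison with DMSO rests on 1 cell line. BCPAP was grown in RPMI medium and CAL-62 in DMEM with a larger share of fetal bovine serum. The effect of the line and that of its medium cannot be told apart. It is not stated whether the 2 libraries of a group are separate cultures. A p-value here therefore reflects only how far these libraries scatter, and that scatter may be technical. Values are RPKM-type, reads scaled to gene length and to a factor for each library, and are given in the order replicate 1, replicate 2. They are called RPKM here, but the factor was not the plain number of reads. The total it implied was below the reads recovered in listed genes in every THZ1 library, 13804955 against 16682509 in CAL-62 THZ1 replicate 1. It was above them in every DMSO library, 23563592 against 19330206 in CAL-62 DMSO replicate 2. Because these are bulk cultures, fewer cells of a kind and less RNA per cell cannot be told apart.

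Chaperones bind unfolded proteins and help them reach or regain their folded form. HSP70 proteins bind short exposed stretches with the help of J-domain proteins, which start their ATP cycle, and of nucleotide exchange factors of the HSP110 and BAG types, which end it. Clients pass on to HSP90 with its co-chaperones or to the closed chambers of the chaperonins, CCT (also called TRiC) in the cytosol and HSPD1 with HSPE1 in mitochondria. Under protein-damaging stress the transcription factor HSF1 binds heat shock elements, inverted repeats of the letters GAA and TTC, and raises transcription of many of these genes. Many of them are also transcribed at high levels in unstressed, growing cells.

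The sequences below show where such letters stand upstream of some of the members, read from RefSeq promoters of the build GRCh38.p14. That is not the build hg19 of the deposited values. Promoters of 300 bases (250 before the gene start and 50 after) were matched by symbol for 36 of the 41 genes, the others being HSPA14, CCT6A, HSF1, FKBP4 and ST13. Both GAANNTTC and TTCNNGAA were searched. Each reads the same on both strands, and the 2 can overlap, sharing a GAA or a TTC. At least 1 match was found in 12 of 36 members (33.3%), in 835 of 8497 matched genes of the deposited tables (9.83%) and in 3738 of all 27305 promoters (13.7%). At least 2 matches were found in 5 of 36 members (13.9%), against 0.989% of the matched genes of the tables and 1.7% of all promoters. A match describes letters only and is not a shown binding site. Lack of a match within these 300 bases does not show that a gene lacks a heat shock element. In the stretches below, each of which ends at the base before the gene start, capitals mark the GAA and TTC letters of the matches. HSPA8, CHORDC1, SERPINH1 and DNAJB6 carry overlapping matches, HSPA1A and HSPA1B carry 1 match in nearly the same surrounding sequence, and the HSPE1 stretch carries none. These stretches come mostly from members with a match. The 24 members without one, such as DNAJB1, HSP90AB1, HSPH1 and CCT7, are not shown apart from HSPE1. HSPE1 is shown because it was called in CAL-62, and because its start lies 105 bases from that of HSPD1, which is read in the opposite direction on chromosome 2.
HSPA8 (chr11:123062137-123062386, minus strand): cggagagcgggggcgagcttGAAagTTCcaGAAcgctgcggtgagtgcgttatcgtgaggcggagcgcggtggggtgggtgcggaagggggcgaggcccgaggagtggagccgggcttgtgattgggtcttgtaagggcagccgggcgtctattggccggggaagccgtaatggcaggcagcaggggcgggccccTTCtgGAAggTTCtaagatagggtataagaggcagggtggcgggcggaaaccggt
CHORDC1 (chr11:90223050-90223269, minus strand): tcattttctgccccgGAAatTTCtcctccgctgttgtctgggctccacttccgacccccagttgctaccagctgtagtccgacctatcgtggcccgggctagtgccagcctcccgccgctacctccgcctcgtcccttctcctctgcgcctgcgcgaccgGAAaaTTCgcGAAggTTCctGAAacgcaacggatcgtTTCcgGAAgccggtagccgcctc
SERPINH1 (chr11:75562143-75562252, plus strand): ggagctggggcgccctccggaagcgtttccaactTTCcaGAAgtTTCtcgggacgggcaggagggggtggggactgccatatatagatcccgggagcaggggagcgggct
DNAJB6 (chr7:157336854-157337003, plus strand): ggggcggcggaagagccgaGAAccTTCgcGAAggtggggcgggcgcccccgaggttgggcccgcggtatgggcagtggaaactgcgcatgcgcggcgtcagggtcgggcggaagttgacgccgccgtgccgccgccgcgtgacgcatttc
HSPA1A (chr6:31815413-31815542, plus strand): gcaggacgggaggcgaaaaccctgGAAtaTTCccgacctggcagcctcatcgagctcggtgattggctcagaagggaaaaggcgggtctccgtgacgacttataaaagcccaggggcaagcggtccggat
HSPA1B (chr6:31827608-31827737, plus strand): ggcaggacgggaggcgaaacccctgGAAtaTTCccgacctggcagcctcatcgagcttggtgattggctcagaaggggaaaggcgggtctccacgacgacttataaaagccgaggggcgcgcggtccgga
HSPE1 (chr2:197500275-197500378, plus strand): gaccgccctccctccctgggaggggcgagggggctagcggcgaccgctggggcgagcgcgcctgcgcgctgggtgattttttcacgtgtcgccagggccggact

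Over these genes as a whole, THZ1 was followed by values above DMSO for most members in both lines, and 1 member passed the test in CAL-62. Changes are THZ1 minus DMSO in log2(RPKM + 1), fitted with limma over all 8 libraries, with Benjamini-Hochberg adjustment over all genes tested, and a gene is called at an adjusted p under 0.05. In CAL-62 the fitted change was positive for 35 of 41 members and negative for DNAJA2, DNAJA3, DNAJB1, BAG2, HSF2 and CHORDC1. The median over the members was 0.55, beside 0.031 over all 11362 genes tested, of which 51.8% had a positive change. Among the 8063 genes with a mean of at least 5 RPKM, which include all 41 members, the median over all genes was 0.181. The 82 ribosomal protein genes tested had a median of 0.953, above that of the members, and 80 of them were positive. A rise is thus not particular to the chaperone genes. HSPE1 was the 1 member called (2.44% of 41), and 525 genes of all those tested (4.62%) were called, 66 of them higher and 459 lower. An unadjusted p under 0.05 was reached by 20 of 41 members and by 3418 genes of all those tested. In BCPAP 38 of 41 members had a positive change, the exceptions being HSPA8, DNAJA3 and DNAJB1, and their median was 0.22 beside 0.067 over 11743 genes. There the median was 0.124 over the 8180 genes with a mean of at least 5 RPKM, and 0.318 over 82 ribosomal protein genes. No member was called in BCPAP, where limma called 0 of all genes (0.0%), with a smallest adjusted p of 0.932 and 471 genes under an unadjusted p of 0.05. No member had an unadjusted p under 0.05 there, and limma-voom on recovered reads called none either.

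A plainer description is whether the 2 THZ1 libraries both lay above, or both below, the 2 DMSO libraries. In CAL-62 this held upward for 21 of 41 members (51.2%), beside 30.1% of all genes, and downward for 3 (7.32%), beside 27.4%. In BCPAP it held upward for 19 members (46.3%), beside 21.9% of all genes, and downward for DNAJA3 alone (2.44%), beside 16.4%. Within each replicate number, the median change of the members was 0.543 and 0.548 in CAL-62 and 0.152 and 0.292 in BCPAP. The change had the same sign in both numbers for 34 members in CAL-62, 30 positive and 4 negative, and opposite signs for the other 7.

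**Figure D1:**
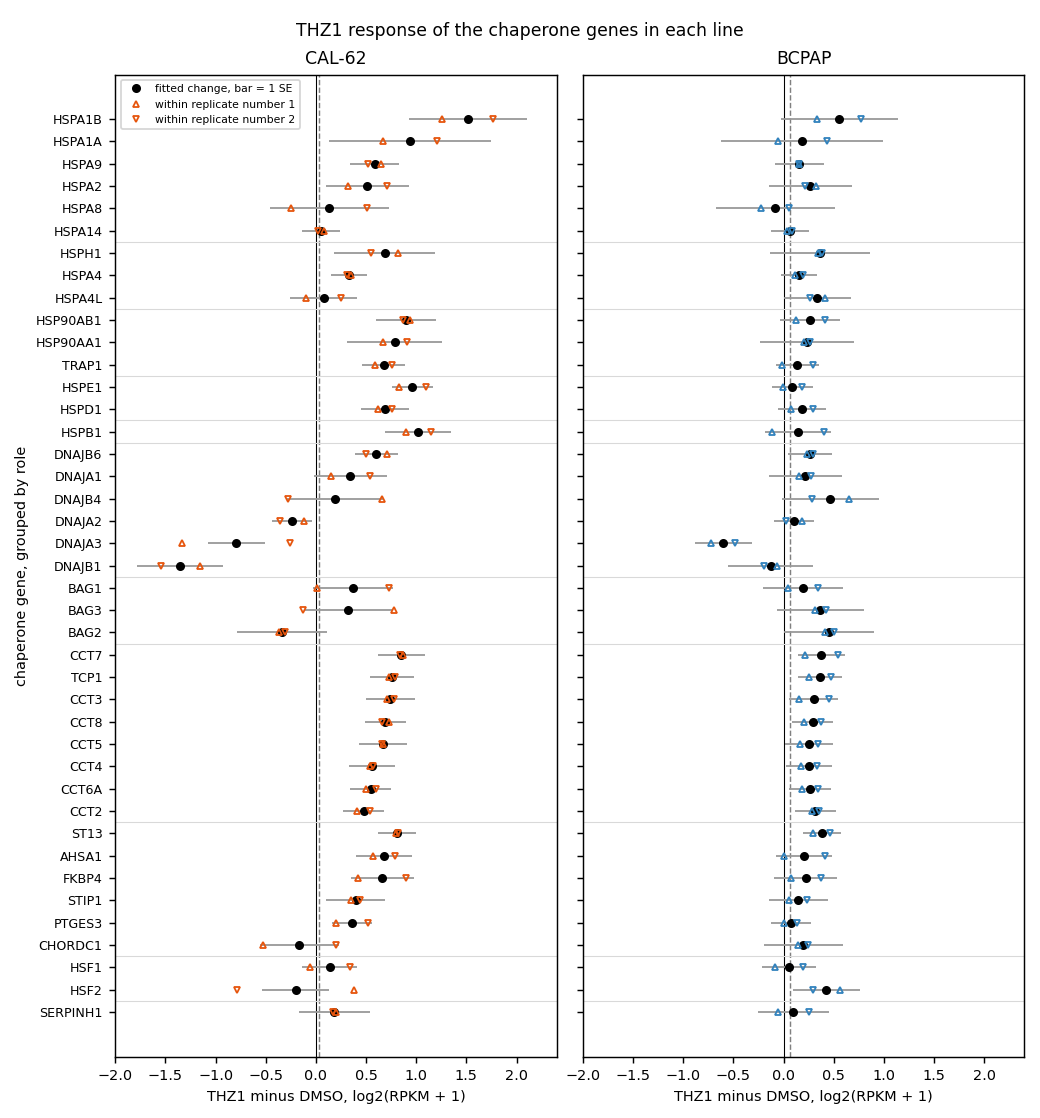
THZ1 minus DMSO in log2(RPKM + 1) for each of the 41 genes in CAL-62 (left) and BCPAP (right), grouped by role. Filled points are fitted changes with bars of 1 standard error, open triangles the change within replicate numbers 1 and 2, and the dashed line is the median of all genes tested; in CAL-62 most points lie right of that line, while DNAJB1 and DNAJA3 lie farthest left.

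Among the HSP70 proteins, the stress-inducible pair HSPA1A and HSPA1B differed widely between libraries. HSPA1B stood at 4.95 and 3.31 RPKM in BCPAP with DMSO and at 6.51 and 6.37 with THZ1. In CAL-62 it stood at 8.56 and 1.89 with DMSO and at 21.9 and 8.85 with THZ1. Both THZ1 libraries lay above both DMSO libraries in each line, but the DMSO replicates of CAL-62 themselves differed 4.53-fold. The fitted change was 1.52 ± 0.58 (SE) in CAL-62 (limma adjusted p = 0.134) and 0.56 ± 0.58 in BCPAP (adjusted p = 0.933), so neither was larger than the spread allows to call. HSPA1A, its near-identical neighbour, stood at 13.01 and 1.65 RPKM with DMSO and at 21.3 and 5.12 with THZ1 in CAL-62, where the groups overlap. Reads of these genes cannot be told apart with certainty, since 72.6% of the 50-base windows of HSPA1A occur in other transcripts. Their RPKM values also imply gene lengths of 12145 and 12601 bases, 4.89 and 5.0 times their longest GENCODE transcripts, where the median ratio over the other 39 members is 0.98. Their levels are therefore not set against those of other genes here.

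HSPA8, the constitutive cytosolic HSP70, was the most abundant HSP70 family gene per length. It stood at 1475 and 731 RPKM with DMSO and at 1261 and 761 with THZ1 in BCPAP, and at 1594 and 533 with DMSO and 1339 and 761 with THZ1 in CAL-62. Replicate 1 was above replicate 2 in every group and the treated and control libraries overlapped. Its fitted change was 0.13 ± 0.59 in CAL-62 (limma adjusted p = 0.901) and -0.08 ± 0.59 in BCPAP (adjusted p = 0.986). HSPA9, the mitochondrial HSP70, had 184 and 169 RPKM with DMSO and 290.1 and 244 with THZ1 in CAL-62, without overlap, a change of 0.59 ± 0.24 (adjusted p = 0.154). HSPA14, which works at the ribosome, differed least between treatments, by 0.05 in CAL-62 and 0.06 in BCPAP.

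The HSP110 type genes encode nucleotide exchange factors for HSP70. HSPA4, the most abundant of them under DMSO, stood at 101.3 and 99.3 RPKM with DMSO and at 109.7 and 113.9 with THZ1 in BCPAP. In CAL-62 it stood at 79.5 and 73.3 with DMSO and at 101.9 and 91.2 with THZ1. The groups did not overlap in either line, and the changes were small, 0.33 ± 0.18 in CAL-62 (limma adjusted p = 0.252) and 0.16 ± 0.18 in BCPAP (adjusted p = 0.938). HSPH1 was at 99.6 and 48.1 with DMSO and 177 and 70.8 with THZ1 in CAL-62, and at 73.6 and 48.2 with DMSO and 93.7 and 63.3 with THZ1 in BCPAP. Within each replicate number HSPH1 was above its control in both lines, by 0.82 and 0.55 in CAL-62 and 0.34 and 0.39 in BCPAP, yet the groups overlap because the numbers differ by more than the treatments (CAL-62 adjusted p = 0.384).

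HSP90 folds kinases and steroid receptors, and its 2 cytosolic forms were the most abundant members per length in both CAL-62 libraries with THZ1. HSP90AB1, the constitutive form, stood at 935 and 784 RPKM with DMSO and at 1021 and 1041 with THZ1 in BCPAP. In CAL-62 it stood at 1126 and 812 with DMSO and at 2156 and 1485 with THZ1. The groups did not overlap in either line, with a change of 0.90 ± 0.30 in CAL-62 (limma adjusted p = 0.0973) and 0.27 ± 0.30 in BCPAP (adjusted p = 0.938). HSP90AA1, the form more readily induced by stress, was at 1143 and 572 with DMSO and 1818 and 1072 with THZ1 in CAL-62, where the groups overlap, and its change was 0.79 ± 0.47 (adjusted p = 0.298). TRAP1, the mitochondrial HSP90, was at 102.3 and 97.8 with DMSO and 155 and 166 with THZ1 in CAL-62, a change of 0.67 ± 0.22 (adjusted p = 0.0917). In BCPAP TRAP1 was at 48.8 and 54.9 with DMSO and 48.2 and 67.3 with THZ1, which overlap. Retrocopies and overlapping genes share sequence with these members: 21.4% of the windows of HSP90AA1, 18.8% of HSP90AB1 and 24.4% of TRAP1 occur in transcripts of other genes, and the deposited tables do not show how such reads were assigned.

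The mitochondrial chaperonin held the called gene. HSPE1, the lid of the HSPD1 chamber, stood at 11.7 and 12.0 RPKM with DMSO and at 21.4 and 26.8 with THZ1 in CAL-62. The means were 11.85 ± 0.25 and 24.1 ± 3.8 RPKM (SD, n = 2), and both treated libraries lay well above both controls. HSPE1 rose by 0.96 ± 0.20 on the log2 scale (limma adjusted p = 0.0432), 2.04-fold as a ratio of means. In BCPAP it stood at 19.1 and 18.9 with DMSO and at 19.0 and 21.6 with THZ1, a change of 0.09 ± 0.20 (adjusted p = 0.964). The call is close to the threshold: leaving out 1 library at a time gave adjusted p-values of 0.0456 to 0.226, and it was lost without either BCPAP DMSO library or any 1 CAL-62 library. It is also lost, and the sign is turned (-0.003 and -0.061), when libraries are scaled to ribosomal protein genes or to mitochondrially encoded genes. HSPE1 shares 52.9% of its windows with other transcripts, among them transcripts assigned to HSPD1, so its reads are uncertain. HSPD1, which shares 25%, was at 237 and 183 with DMSO and 364 and 311 with THZ1 in CAL-62, a change of 0.69 ± 0.24 (adjusted p = 0.107). In BCPAP HSPD1 was at 325 and 254 with DMSO and at 343 and 311 with THZ1, which overlap, a change of 0.18 ± 0.24 (adjusted p = 0.938). The RPKM of HSPD1 was 11.6 to 20.3 times that of HSPE1. Since both genes share windows with other transcripts, this ratio may partly reflect how reads were assigned, which was not tested.

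HSPB1 encodes a small heat shock protein that holds unfolded clients without ATP. It stood at 149 and 199 RPKM with DMSO and at 138 and 263 with THZ1 in BCPAP. In CAL-62 it stood at 448 and 358 with DMSO and at 834 and 792 with THZ1. The CAL-62 groups did not overlap and those of BCPAP did, with changes of 1.02 ± 0.33 in CAL-62 (limma adjusted p = 0.0934) and 0.14 ± 0.33 in BCPAP (adjusted p = 0.964). HSPB1 passed the threshold in CAL-62 when either BCPAP THZ1 library was left out, together with ST13.

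Of the 6 J-domain proteins, 3 had a positive and 3 a negative change in CAL-62. DNAJB1, the main partner of HSP70 in the heat shock response, stood at 117 and 67.4 RPKM with DMSO and at 51.9 and 22.5 with THZ1 in CAL-62, so that both treated libraries lay below both controls. Its fitted change was the most negative of all members, -1.35 ± 0.43 (limma adjusted p = 0.0895), or 0.403 times the DMSO mean. In BCPAP DNAJB1 stood at 87.6 and 67.4 with DMSO and at 83.7 and 58.8 with THZ1, which overlap, a change of -0.13 ± 0.43 (adjusted p = 0.975). DNAJA3, a mitochondrial J-domain protein, was at 34.97 and 27.9 with DMSO and 13.3 and 23.2 with THZ1 in CAL-62, and at 23.4 and 19.3 with DMSO and 13.8 and 13.5 with THZ1 in BCPAP. It was the 1 member whose treated libraries lay below the controls in both lines, with changes of -0.80 ± 0.28 (adjusted p = 0.115) and -0.60 ± 0.28 (adjusted p = 0.932). DNAJA1, the most abundant J-domain gene, differed by 0.34 ± 0.36 in CAL-62 (adjusted p = 0.551), from 323 and 171 with DMSO to 359 and 248 with THZ1, where the groups overlap. In BCPAP DNAJA1 was at 120.2 and 82.9 with DMSO and at 134 and 100.7 with THZ1, which overlap too, a difference of 0.22 ± 0.36 (adjusted p = 0.947). DNAJB6, which keeps aggregation-prone proteins soluble, was at 69.0 and 58.4 with DMSO and 113 and 82.8 with THZ1 in CAL-62, a change of 0.60 ± 0.22 (adjusted p = 0.116). DNAJB4 had the fewest reads of any member, 59 in 1 CAL-62 THZ1 library, while the other 40 members had at least 100 reads in every library.

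BAG proteins release clients from HSP70, and their 3 members showed no common direction in CAL-62. BAG1, with the largest fitted change there, stood at 13.9 and 17.9 RPKM with DMSO and at 14.0 and 30.3 with THZ1, 0.37 ± 0.40 on the log2 scale (limma adjusted p = 0.554). In BCPAP BAG1 was at 6.67 and 9.09 with DMSO and 6.88 and 11.8 with THZ1, a change of 0.19 ± 0.40 (adjusted p = 0.961). Replicate 2 was above replicate 1 in every group for this gene. BAG3, which links HSP70 to autophagy, was at 67.0 and 45.2 with DMSO and 116 and 41.2 with THZ1 in CAL-62, so that the 2 replicate numbers moved in opposite directions (0.78 and -0.13). In BCPAP, BAG3 stood at 46.0 and 46.3 with DMSO and at 57.3 and 62.3 with THZ1, without overlap, a change of 0.36 ± 0.43 (adjusted p = 0.938). BAG2 had a negative change in CAL-62 (-0.34) and a positive one in BCPAP (0.46), and 43.9% of its windows occur in other transcripts, mostly of RAB23.

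The cytosolic chaperonin CCT is a ring of 8 different subunits that folds actin and tubulin. All 8 subunit genes had treated libraries above the controls in both lines and a positive change within both replicate numbers, yet none was called. In CAL-62 the changes ran from 0.48 (CCT2) to 0.85 (CCT7), with a median of 0.68, and in BCPAP from 0.25 (CCT5) to 0.38 (CCT7), with a median of 0.29. CCT7 stood at 215 and 167 RPKM with DMSO and at 249 and 243 with THZ1 in BCPAP. In CAL-62 it stood at 313 and 258 with DMSO and at 572 and 462 with THZ1, a change of 0.85 ± 0.23 (limma adjusted p = 0.0711). The BCPAP change was 0.38 ± 0.23 (adjusted p = 0.932). Adjusted p-values of the other 7 subunits in CAL-62 ran from 0.0763 (TCP1) to 0.16 (CCT2). In CAL-62 all 8 had positive changes as deposited and with median-of-ratios or upper quartile scaling, 5 had them with scaling to the sum of values, and none when libraries were scaled to ribosomal protein genes or to mitochondrially encoded genes.

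Although the subunits occur once each in the ring, their transcripts were not equal per length. The highest subunit had 2.92 to 3.73 times the RPKM of the lowest within a library. CCT5 was the highest and CCT3 the lowest in every BCPAP library, whereas CCT7 was the highest and CCT8 the lowest in every CAL-62 library. THZ1 left this order at its 2 ends as it was in both lines. CCT5 shares 49.8% of its windows with other transcripts, nearly all with 1 gene, so its level carries that uncertainty.

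**Figure D2:**
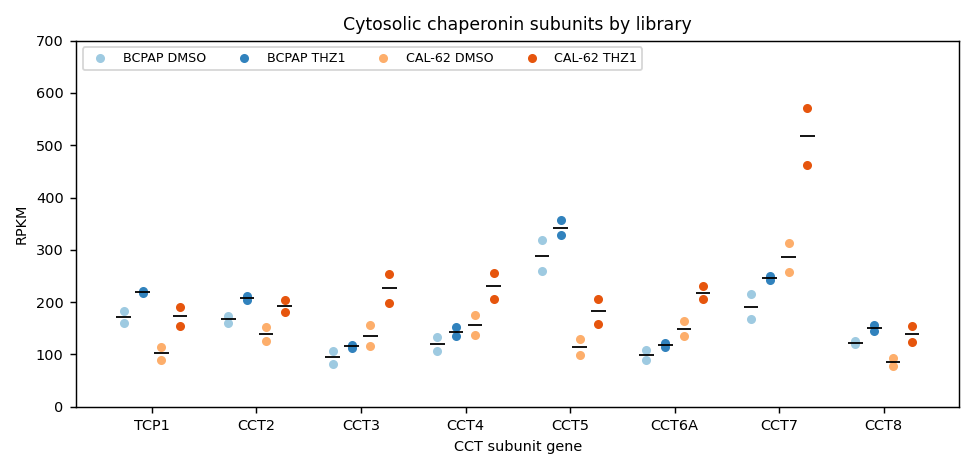
RPKM of the 8 CCT subunit genes in each library (points), with the mean of the 2 libraries of a group as a bar, on a linear axis from 0. In each line the THZ1 points lie above the DMSO points for every subunit, CCT5 stands out in BCPAP and CCT7 in CAL-62.

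Of the 6 co-chaperones of HSP90 and HSP70, 5 had a positive change in CAL-62 and all 6 in BCPAP, and none was called. ST13, also called HIP, which stabilises the HSP70 client complex, stood at 73.7 and 63.6 RPKM with DMSO and at 128 and 113 with THZ1 in CAL-62, without overlap. Its change was 0.81 ± 0.19 (limma adjusted p = 0.0537), just outside the threshold, where HSPE1 is just inside it. In BCPAP it stood at 40.97 and 41.4 with DMSO and at 50.5 and 57.5 with THZ1, 0.38 ± 0.19 (adjusted p = 0.932). PTGES3, or p23, which holds HSP90 in its closed form and was the most abundant co-chaperone under DMSO, was at 186 and 152 with DMSO and 214 and 218 with THZ1 in CAL-62, a change of 0.36 ± 0.20 (adjusted p = 0.258). In BCPAP it was at 203 and 195 with DMSO and 204 and 214 with THZ1, groups that are adjacent but do not overlap, a change of 0.07 ± 0.20 (adjusted p = 0.97). AHSA1, which activates the HSP90 ATPase, FKBP4, an HSP90-bound prolyl isomerase, and STIP1, which bridges HSP70 and HSP90, had changes of 0.68, 0.66 and 0.40 in CAL-62 and 0.20, 0.22 and 0.15 in BCPAP. CHORDC1, with 6 matches to the heat shock letters upstream, stood at 22.0 and 9.41 with DMSO and 14.96 and 10.9 with THZ1 in CAL-62, and its replicate numbers differed in sign (-0.53 and 0.20).

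Neither heat shock transcription factor was called in either line. HSF1, the stress-responsive factor, stood at 26.0 and 30.4 RPKM with DMSO and at 24.9 and 38.6 with THZ1 in CAL-62, which overlap, a change of 0.14 ± 0.27 (limma adjusted p = 0.76). In BCPAP it stood at 17.6 and 20.1 with DMSO and at 16.5 and 23.2 with THZ1, a change of 0.05 ± 0.27 (adjusted p = 0.985). HSF2, a second factor that can pair with HSF1, was at 6.49 and 7.82 with DMSO and 8.73 and 4.13 with THZ1 in CAL-62, with opposite signs in the 2 replicate numbers (0.38 and -0.78) and a fitted change of -0.20 ± 0.33 (adjusted p = 0.708). In BCPAP HSF2 was at 7.19 and 6.54 with DMSO and 11.1 and 8.22 with THZ1, without overlap, a change of 0.43 ± 0.33 (adjusted p = 0.932). SERPINH1, or HSP47, the collagen chaperone of the endoplasmic reticulum, was at 64.1 and 42.7 with DMSO and 73.7 and 48.2 with THZ1 in CAL-62, and at 166 and 96.6 with DMSO and 159 and 116 with THZ1 in BCPAP. Its treatment groups overlap in both lines, with changes of 0.18 ± 0.35 (adjusted p = 0.754) and 0.10 ± 0.35 (adjusted p = 0.975).

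As deposited, the change was more positive in CAL-62 than in BCPAP for 31 of 41 members, beside 49.2% of all genes, but no difference between the lines passed the test. That count was 15 with scaling to the sum of values, 4 with scaling to ribosomal protein genes and 5 with scaling to mitochondrially encoded genes. The member medians were -0.12, -0.39 and -0.32 in place of 0.29. The median of all genes moved too, from -0.01 as deposited to -0.35, -0.59 and -0.454 in the same order. Members above that median numbered 31 of 41 as deposited, and 31, 31 and 28 in that order. All genes of a library share the same scaling factor, so these last counts could change little and are no separate support. limma called 0 members and 0 of 10653 genes (0.0%) for the difference of the responses, with 562 genes under an unadjusted p of 0.05 and a smallest adjusted p of 0.834. HSPE1 was the 1 member with an unadjusted p under 0.05, with a difference of 0.87 ± 0.29 (adjusted p = 0.834). For DNAJB1 the difference was -1.22 ± 0.60 (adjusted p = 0.844), for HSPB1 0.87 ± 0.47 (adjusted p = 0.844) and for CCT7 0.47 ± 0.33 (adjusted p = 0.844).

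The sign of these changes moves with the scaling of the libraries in both lines. The deposited values already place the typical gene at about the same level in all libraries, so a change in the total mRNA of a cell is not visible in them. In CAL-62 the median change of the members was 0.55 as deposited, 0.52 with median-of-ratios scaling and 0.34 with scaling to the upper quartile. It was -0.10 with scaling to the sum of values, -0.46 with scaling to ribosomal protein genes and -0.53 with scaling to mitochondrially encoded genes. The median of all genes moved with it, from 0.03 as deposited to -0.51, -0.82 and -0.83 under the last 3. In BCPAP 38 members were positive as deposited, and 19, 11 and 2 were positive under those 3, with medians of -0.001, -0.10 and -0.24. The number of members above the median of all genes was 30 to 35 of 41 in CAL-62 and 33 to 36 in BCPAP over the 6 scalings. A scaling divides all genes of a library by the same factor, so these counts could change little and are no separate support. The gap between the 2 medians in CAL-62 was 0.52 as deposited and 0.30 with scaling to mitochondrially encoded genes. As deposited, it was 0.37 among genes with a mean of at least 5 RPKM. DNAJB1 was negative under all 6, from -1.35 to -2.41, and with scaling to the sum of values DNAJB1, DNAJA3 and DNAJA2 were called lower in CAL-62 (limma adjusted p = 0.0129, 0.02 and 0.0301), as were 2415 of 11398 genes in all. DNAJA2, DNAJA3, BAG2, HSF2 and CHORDC1 were also negative under all 6 in CAL-62. HSPA1B was positive under all 6, from 0.58 to 1.52, as was HSPA1A, from 0.03 to 0.94. The share of reads in mitochondrially encoded genes was itself 6.26% and 3.74% with DMSO and 10.3% and 5.45% with THZ1 in CAL-62. Its part in the changes of the members was not tested.

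**Figure D3:**
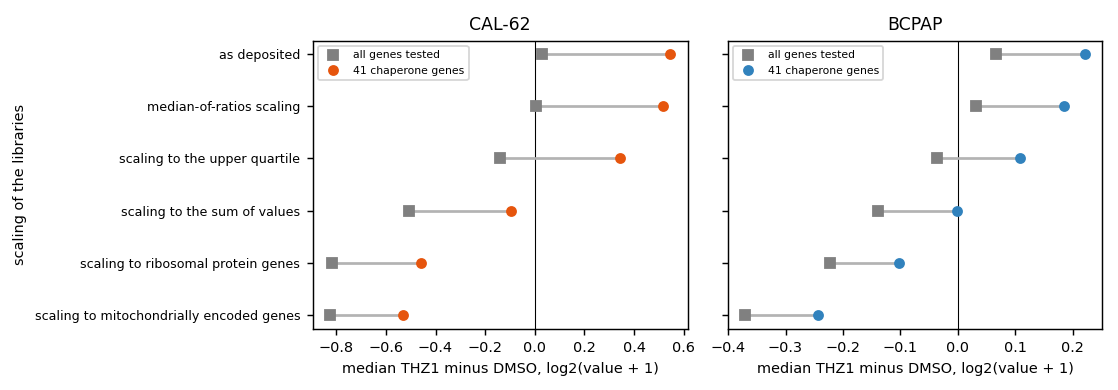
Median of THZ1 minus DMSO in log2(value + 1) over all genes tested (squares) and over the 41 chaperone genes (circles) under 6 scalings of the libraries, for CAL-62 (left) and BCPAP (right, with a narrower axis). Both medians shift left from top to bottom, and the circle stays to the right of the square in every row. A scaling moves both medians together.

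A second pattern in these genes runs with the replicate number and not with THZ1. For 24 of 41 members (58.5%) replicate 1 was above replicate 2 in all 4 groups, beside 24.9% of the 10698 genes in both tables. For BAG1 and HSF1 (4.88%) it was below in all 4, beside 22.0% of genes. The median of replicate 1 minus replicate 2 over the members was 0.26 in BCPAP with DMSO, 0.08 in BCPAP with THZ1, 0.37 in CAL-62 with DMSO and 0.36 in CAL-62 with THZ1, where over all genes it was 0.03 to 0.04. HSPA8 differed 2.02-fold, 1.66-fold, 2.99-fold and 1.76-fold between the replicates of those groups in that order. HSP90AA1 differed 1.76-fold, 1.68-fold, 2.0-fold and 1.695-fold, and HSPH1 1.53-fold, 1.48-fold, 2.07-fold and 2.50-fold. HSPA1A differed 1.56-fold, 1.01-fold, 7.89-fold and 4.16-fold. In CAL-62 these replicate differences were larger than the treatment difference for HSPA8, HSPA1A and HSPH1. The members took 1.77%, 1.72%, 2.37% and 2.46% of all listed reads in the replicate 1 libraries and 1.3%, 1.35%, 1.54% and 1.93% in the replicate 2 libraries.

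Members that followed the replicate number were found both with and without heat shock letters in their promoters. Of the 12 members with a match 9 were above in replicate 1 in all groups, and of the 24 without a match 13 were. The median of replicate 1 minus replicate 2 in CAL-62 with DMSO was 0.74 with a match and 0.37 without, and in BCPAP with DMSO 0.44 and 0.23. For the THZ1 change the medians were 0.57 with a match and 0.49 without in CAL-62, and 0.21 and 0.24 in BCPAP. These are descriptions over few genes and were not tested. The split rests on exact letters near the gene start and does not part genes bound by HSF1 from genes not bound. Those without a match include HSPH1, HSP90AA1 and DNAJB1. What a replicate number stands for is not stated in the labels. The share of reads in mitochondrially encoded genes was also higher in replicate 1 of every group, 4.74% against 2.69%, 5.07% against 3.38%, 6.26% against 3.74% and 10.3% against 5.45% in the same order, and its part in the pattern was not tested.

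**Figure D4:**
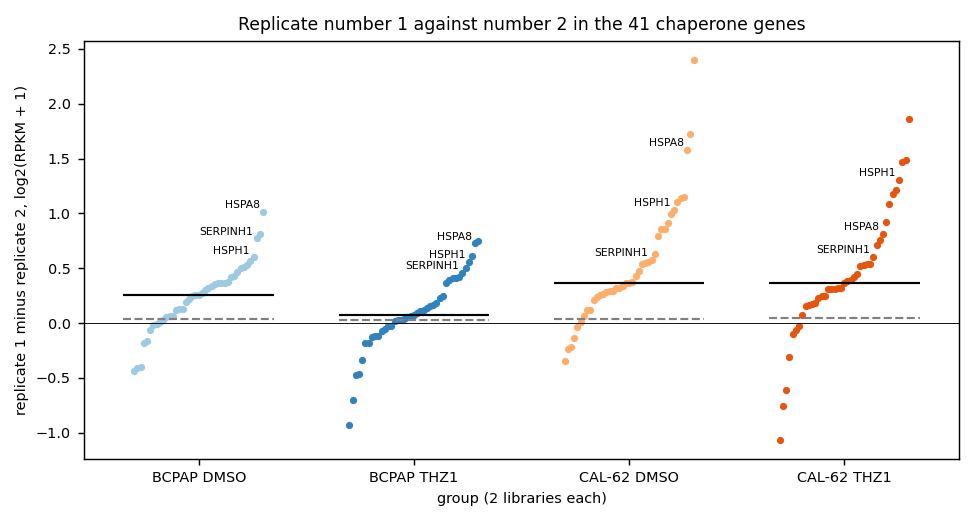
Replicate 1 minus replicate 2 in log2(RPKM + 1) for the 41 genes in each group, sorted within the group. Black lines are medians over these genes and dashed grey lines medians over all genes in both tables; most points lie above 0 in each group, and HSPA8, HSPH1 and SERPINH1 do so in all 4.

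Between the lines given DMSO, these genes were called at a share near that of all genes. Under DMSO 7 of 41 members (17.1%) were called between CAL-62 and BCPAP, beside 14.1% of 10653 genes, 6 of them higher in CAL-62 and CCT5 lower. The median difference was 0.37 over the members and 0.009 over all genes. The CAL-62 libraries both lay above those of BCPAP for 19 members (46.3%) and below for 10 (24.4%), beside 33.3% of genes in each direction. These calls compare 2 cultures in 2 media.

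HSPA2, an HSP70 best known from the testis, had the largest called difference. It stood at 2.17 and 3.30 RPKM in BCPAP and at 23.6 and 10.4 in CAL-62, 6.21 times as high by the means, a difference of 2.18 ± 0.41 (limma adjusted p = 0.0149). HSPA4L, an HSP110 type gene, stood at 6.39 and 5.34 in BCPAP and at 23.1 and 12.3 in CAL-62, a difference of 1.39 ± 0.34 (adjusted p = 0.0342). The 2 CAL-62 libraries differed 2.26-fold from each other for HSPA2 and 1.88-fold for HSPA4L, yet both lay above both BCPAP libraries. HSPB1, given above, differed by 1.22 ± 0.33 (adjusted p = 0.0476). TRAP1 differed by 0.94 ± 0.22 (adjusted p = 0.0287), DNAJB6 by 0.86 ± 0.22 (adjusted p = 0.038, with 33.7 and 35.2 in BCPAP) and ST13 by 0.72 ± 0.19 (adjusted p = 0.0444). CCT5 was the 1 member called lower, at 318 and 258 in BCPAP and 129 and 99.3 in CAL-62, a difference of -1.33 ± 0.24 (adjusted p = 0.0134). Just outside the threshold, without overlap, FKBP4 was higher in CAL-62 (1.12, adjusted p = 0.0521), and SERPINH1 (-1.26, adjusted p = 0.0525) and DNAJB4 (-1.70, adjusted p = 0.0531) were lower. TCP1 (-0.75, adjusted p = 0.0597) and DNAJA1 (1.23, adjusted p = 0.0602) came next. No member was called without either BCPAP DMSO library, CCT5 alone was called without CAL-62 DMSO replicate 1, and HSPA2 and HSPA4L alone without CAL-62 DMSO replicate 2.

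With THZ1 the 7 called genes kept their order between the lines. HSPA2 stood at 2.95 and 3.99 RPKM in BCPAP and 29.6 and 17.6 in CAL-62, HSPA4L at 8.80 and 6.62 and at 21.6 and 14.8, and DNAJB6 at 39.7 and 43.5 and at 113 and 82.8. CCT5 stayed higher in BCPAP, at 356 and 329, than in CAL-62, at 207 and 158. None of these 4 was called for THZ1 in CAL-62, where their changes were 0.51 ± 0.41 (limma adjusted p = 0.43), 0.08 ± 0.34 (adjusted p = 0.899), 0.60 ± 0.22 (adjusted p = 0.116) and 0.67 ± 0.24 (adjusted p = 0.118). In BCPAP they were 0.27, 0.34, 0.26 and 0.25.

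**Figure D5:**
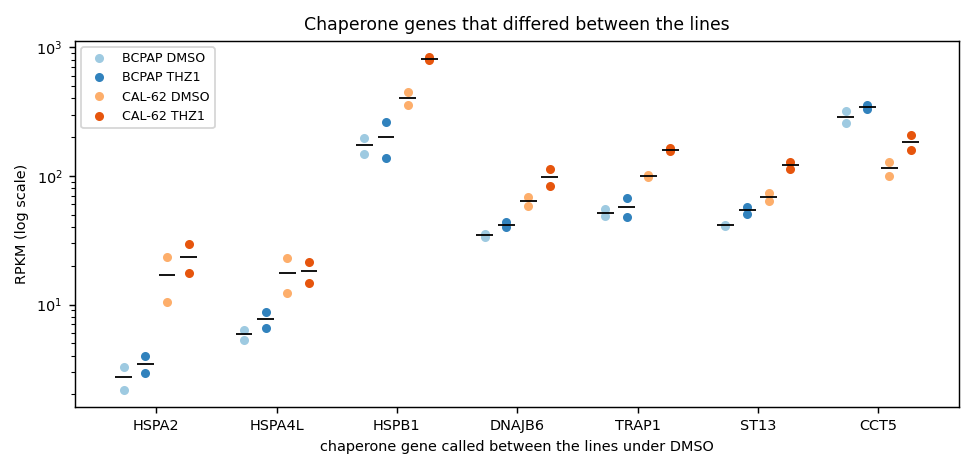
RPKM on a log axis of the 7 genes called between the lines under DMSO, with each library as a point and group means as bars. CAL-62 points lie above BCPAP points for 6 genes and below them for CCT5, with DMSO and with THZ1.

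The wider folding machinery was described with lists of 91 further genes, of which 75 were tested in CAL-62. Of these 3 rose and 2 fell, beside 4.62% of all genes called, and their median change was 0.41, 49 being positive. PDIA6, a disulfide isomerase of the endoplasmic reticulum, stood at 72.1 and 62.4 RPKM with DMSO and at 127 and 115 with THZ1, and rose by 0.84 ± 0.19 (limma adjusted p = 0.0476). VBP1, a subunit of prefoldin, which hands actin and tubulin to CCT, stood at 40.6 and 41.2 with DMSO and at 76.1 and 79.6 with THZ1, and rose by 0.91 ± 0.19 (adjusted p = 0.0432). HSBP1, which binds HSF1, rose by 0.85 ± 0.18 (adjusted p = 0.0432). DNAJC14, a J-domain protein of the endoplasmic reticulum, fell by 1.38 ± 0.23 (adjusted p = 0.0256), from 15.3 and 12.4 to 4.39 and 5.04. HSPBAP1, which binds HSPB1, fell by 1.19 ± 0.24 (adjusted p = 0.0399).

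By list, 14 of 16 endoplasmic reticulum chaperones had a positive change in CAL-62 with a median of 0.73, and all 6 prefoldin subunits did, with a median of 0.63. The largest single changes there were those of DNAJB9 (-1.21, adjusted p = 0.0838) and PFDN5 (0.95, adjusted p = 0.065), neither called by limma. The other J-domain genes had a median of -0.10, with 9 of 22 positive, and further co-chaperones a median of 0.41, with 14 of 22 positive. The 7 mitochondrial folding and protease genes had a median of 0.40, the largest change being that of CLPP. Of 15 further heat shock genes, 2 were tested in CAL-62, with HSPB11 the larger at 0.67. In BCPAP 78 of the 91 genes were tested, none was called by limma and the median was 0.17. Between the lines under DMSO 5 were called higher in CAL-62 (DNAJC15, DNAJC19, FKBP5, TOMM34 and HSPBAP1) and 4 lower (P4HB, PFDN6, DNAJB2 and HSPB11) among 75 tested, beside 14.1% of all genes.

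The depth and makeup of the libraries bear on all values above. Between 16682509 and 19989730 reads were recovered per library, and the median gene had 399 to 730. The 2 libraries of each group differed by much more than counting error, chi-square over degrees of freedom being 66.2 to 117.9. Among thyroid markers, PAX8 was listed in both lines and NKX2-1 and FOXE1 in BCPAP only, while TG, TSHR and SLC5A5 were in neither table. KRT8, KRT18, VIM, FN1 and CDH2 were listed in both lines, EPCAM and KRT19 in CAL-62 only, and CDH1 in neither. None of 4 endothelial markers, CD68 alone of 5 blood markers and COL1A1 alone of 5 fibroblast markers was listed. A gene is listed for a line only where its DMSO mean was at least about 1 RPKM, so a chaperone gene switched on from below that level would be outside the tables.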

How the data were processed

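RNA of 8 libraries (4 groups of 2) was analysed from the tables deposited by the authors, which hold 1 RPKM-type value per gene and library. The unit was inferred from the values. Bowtie2, DESeq2 and hg19 are named, without roles or versions, per the submitters' processing notes. For the counting program, annotation and strand setting the entry is: not given in the sources used here. A whole read number within 0.02 reads was recovered for 12715 of 12715 genes.

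Members were found by symbol. The members, the other lists, the rule for named genes and the tests were chosen with earlier results of these data known. Named genes are every called member and, in each role, the gene with the largest change in CAL-62 and that with the highest DMSO level. limma 3.58.1 in R 4.3.3, with a mean-variance trend, was fitted on log2(RPKM + 1) of genes with a mean of at least 1. Each group had its own mean and all libraries shared 1 estimate of the spread, and genes listed for 1 line were fitted on its 4 libraries. Two-sided p-values were adjusted by Benjamini-Hochberg over all genes, and the script was tested on simulated data. The scale understates changes of low genes. Sequences come from RefSeq, and shared 50-base windows were counted in GENCODE transcripts. The alternatives were a pseudocount of 0.1, no filter, a mean of at least 5, a replicate block, each line alone, limma-voom on recovered reads, 5 other scalings and leaving out each library.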

Additional observations from a re-analysis of the deposited data

How the results depend on the processing

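The count of members called for THZ1 in CAL-62 was 1 as reported, and 0 to 3 when 1 library was left out. It was 0 with a mean of at least 5, with each line fitted alone, and with scaling to the upper quartile or to mitochondrially encoded genes. It was 3, all lower, with scaling to the sum of values and 2, both lower, with scaling to ribosomal protein genes. The HSPE1 change became -0.003 and -0.061 with scaling to ribosomal protein genes and to mitochondrially encoded genes. limma-voom called ST13 in place of HSPE1. Between the lines under DMSO the count was 7 as reported and 0 to 8 when 1 library was left out. It was 12 with limma-voom and with scaling to the sum of values, 11 with the upper quartile, 3 with ribosomal protein genes and 0 with mitochondrially encoded genes. The counts for BCPAP and for the difference of the responses were 0 under every alternative run. All genes called in CAL-62 were 525 as reported, and 0 with each line alone, 196 with a mean of at least 5, 799 with the upper quartile, 2422 with the sum of values, 2815 with ribosomal protein genes, 1 with mitochondrially encoded genes and 0 to 833 without 1 library. Between the lines they were 1505, and 543, 42 and 275 to 1897 with ribosomal protein genes, mitochondrially encoded genes and without 1 library. The cause of these differences was not tested.

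With the replicate block within each line, 25 members were called for THZ1 in CAL-62 (23 higher, all 8 CCT subunits among them, with DNAJA3 and DNAJB1 lower), 28 between the lines and 0 in BCPAP. The same fit called 4563 of 11362 genes in CAL-62 and 4322 of 10653 between the lines. Same-numbered libraries deviated together from their group means (correlation over genes 0.78 in BCPAP and 0.47 in CAL-62, over the members 0.841 and 0.71). With 2 numbers a line and no label for what a number marks, the pairing is not established. With 2 libraries a group the spread is estimated mostly from other genes and groups, and leaving one out leaves a lone library assumed to vary like the rest.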
